A study of Schizosaccharomyces pombe with 12 samples.

Results

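The genes described here are 6 of the 7268 features of the count table of this Schizosaccharomyces pombe study: fbp1 (SPBC1198.14c), inv1 (SPCC191.11), scr1 (SPBC1D7.02c), rst2 (SPAC6F12.02), pka1 (SPBC106.10) and cgs1 (SPAC8C9.03). They were chosen by identifier as 2 glucose-repressed enzymes and 4 of their regulators, and all 6 passed the filter on low counts. RNA was sequenced from lsd1-ΔHMG (labelled lsd1dHMG), set1Δ (labelled set1d) and wild-type (WT) cells at 37°C and 30°C, 2 libraries per strain and temperature. The lsd1-ΔHMG allele removes the C-terminal HMG region of the histone demethylase Lsd1 and is a truncation rather than a null, set1Δ lacks the only histone H3K4 methyltransferase of this yeast, and the study's methods describe the 37°C cultures as heat-stressed after growth at 30°C. The study describes the replicates of a genotype as independently derived. RNA came from whole cultures, so fewer cells with a transcript and less of it per cell cannot be told apart.

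In fission yeast, glucose is sensed by a G protein-coupled receptor that drives adenylate cyclase, and the cAMP it makes releases the kinase Pka1 from its inhibitory subunit Cgs1. Active Pka1 restrains the zinc-finger activator Rst2, and the zinc-finger repressor Scr1 acts beside it, which keeps fructose-1,6-bisphosphatase (fbp1, gluconeogenesis) and invertase (inv1, sucrose breakdown) low in glucose. When glucose runs out, Rst2 binds the stress-starvation response element (STREP) and the Atf1-Pcr1 pair binds the cAMP response element (CRE) of fbp1, and transcription rises. Long non-coding RNAs that start upstream of fbp1 are known to be made while its promoter opens.

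fbp1 and inv1 varied most among the 6 genes, and each carries both letter patterns upstream, so the stretches that hold them are shown. Patterns were searched for in the 1000 bases before the annotated gene start (RefSeq, ASM294v3), on both strands, as TGACGT for CRE and CCCCT for STREP. Capitals mark the pattern, and each sequence reads along its gene. The fbp1 CRE lies on the other strand and therefore appears as its reverse complement. The stretches lie at chrII:200264-200349 (-) and chrII:199632-199716 (-) for fbp1, and at chrIII:1722730-1722814 (+) and chrIII:1722866-1722951 (+) for inv1, in this order:
fbp1 CRE: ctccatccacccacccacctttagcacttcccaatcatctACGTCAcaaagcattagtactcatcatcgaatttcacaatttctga
fbp1 STREP: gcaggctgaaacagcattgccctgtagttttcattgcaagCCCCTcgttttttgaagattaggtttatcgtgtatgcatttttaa
inv1 STREP: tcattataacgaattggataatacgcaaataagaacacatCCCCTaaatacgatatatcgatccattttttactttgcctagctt
inv1 CRE: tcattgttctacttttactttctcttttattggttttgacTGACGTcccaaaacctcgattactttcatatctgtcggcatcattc

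The pattern begins 940 bases (CRE) and 307 bases (STREP) upstream of the fbp1 start, and 528 bases (CRE) and 664 bases (STREP) upstream of the inv1 start. Among the regulators, scr1 has 1 CRE and 4 STREP matches, the nearest 9 bases from its start, cgs1 has 1 of each, pka1 has 2 STREP matches, and rst2 has no match in this window. Of 5123 promoters of the same length, 14.9% hold the CRE letters, 33.5% the STREP letters and 5.43% both. Such matches are descriptions of letters, not of binding.

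The libraries held 27642384 to 34843653 counts, and levels are given as CPM computed on TMM-scaled library sizes. Transcript of set1 stood at 14.3 to 16.1 CPM in the 4 set1Δ libraries and at 64.4 to 112 CPM in the 8 others. The count of lsd1 covers the part that the truncated allele keeps and cannot check the lsd1-ΔHMG label. hsp16, a small heat shock protein gene induced by heat, was at 4535 and 5795 CPM in wild-type cells labelled 37°C and at 39399 and 36204 CPM in wild-type cells labelled 30°C. It thus ran against the wild-type temperature labels, whereas it was higher at 37°C in lsd1-ΔHMG (3969 and 5096 CPM, against 2262 and 2178 CPM at 30°C) and in set1Δ (15389 and 19021 CPM, against 830.3 and 727 CPM at 30°C). Every wild-type temperature difference below takes its sign from these labels, and comparisons with wild-type use the same libraries. The part of this in the results was not tested.

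fbp1, the gluconeogenic enzyme, had the widest range of the 6 genes. Its level was 155 and 195 CPM in lsd1-ΔHMG cells at 37°C, and 817 and 658 CPM at 30°C. In set1Δ cells it was 47.0 and 47.4 CPM at 37°C and 69.2 and 66.4 CPM at 30°C. Wild-type cells had 227 and 220.2 CPM at 37°C and 7005 and 6117 CPM at 30°C. The wild-type 30°C pair was therefore far above every other library and the set1Δ libraries were the lowest at each temperature. From highest to lowest the order was wild-type at 30°C (mean 6561 CPM), lsd1-ΔHMG at 30°C, wild-type at 37°C, lsd1-ΔHMG at 37°C, set1Δ at 30°C and set1Δ at 37°C (mean 47.2 CPM), with no overlap between neighbours and a ratio of 139 between the ends. Per kilobase of gene, fbp1 ranked 3930 of 6673 features in set1Δ cells at 37°C and 27 of 6673 in wild-type cells at 30°C.

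**Figure D1:**
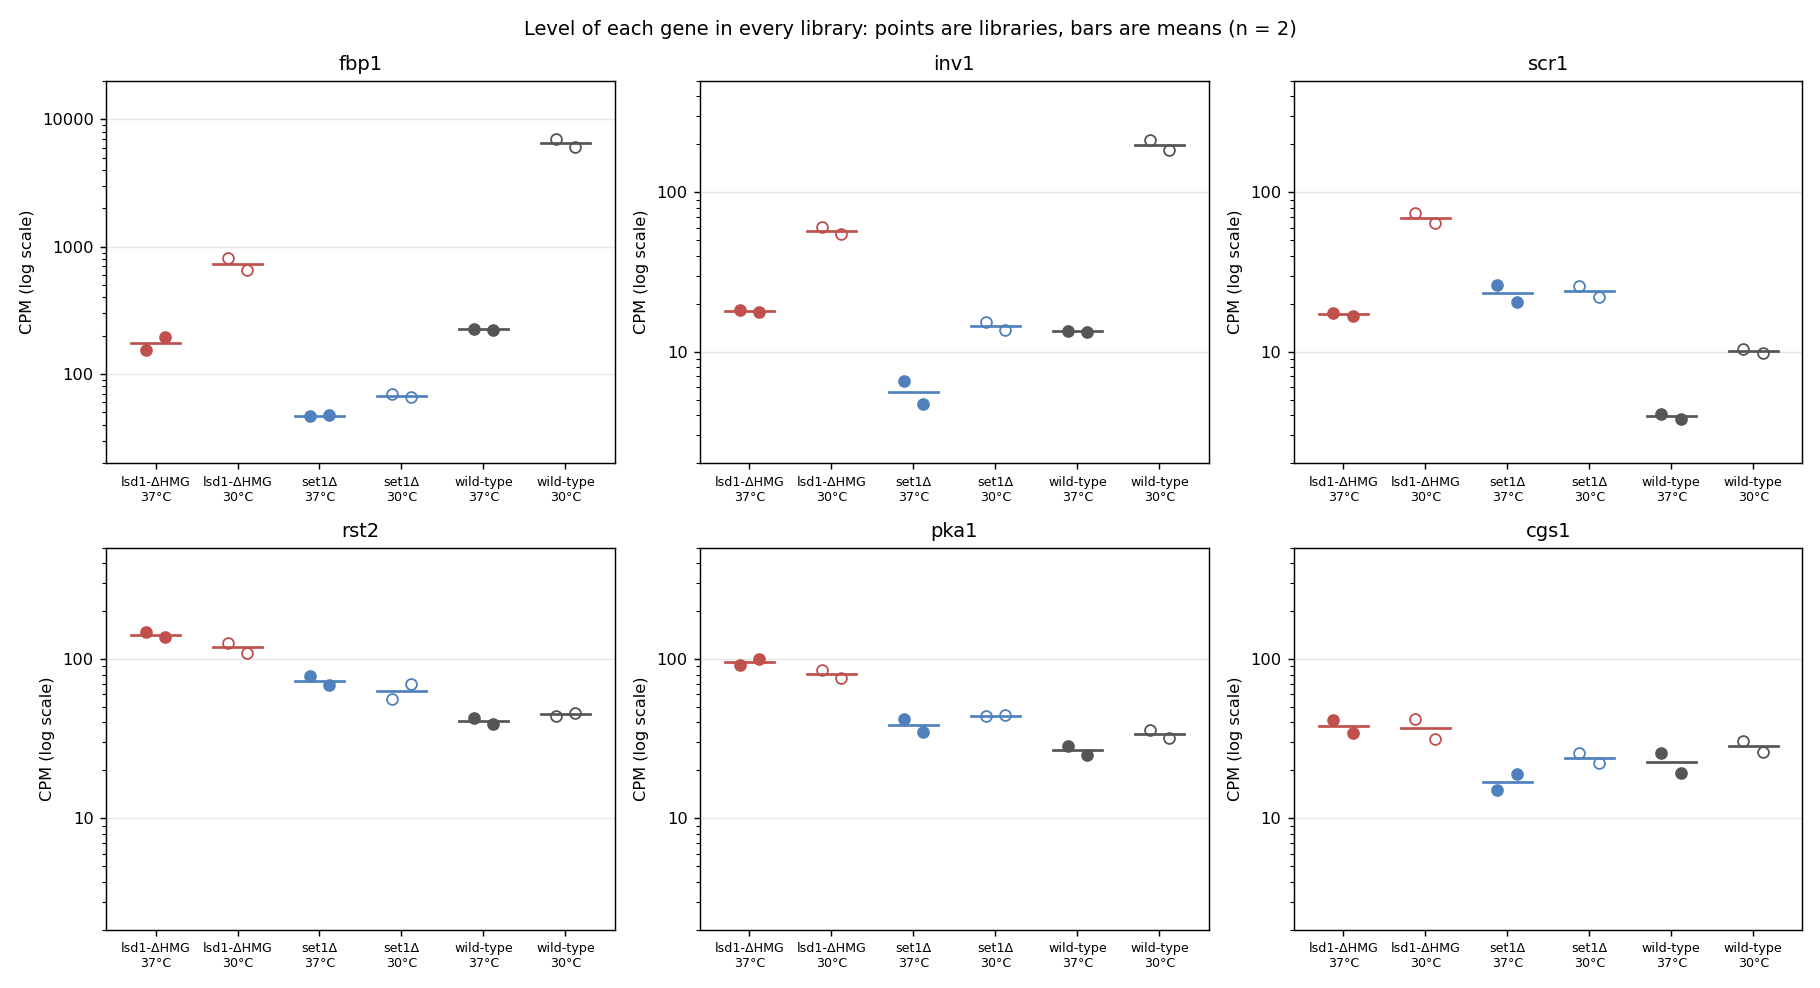
CPM (log axis) of the 6 genes in every library by condition, with points for libraries (filled at 37°C, open at 30°C) and bars for means of 2 libraries. The wild-type 30°C pair stands highest for fbp1 (7005 and 6117 CPM) and inv1 (212 and 186 CPM), whereas lsd1-ΔHMG conditions have the highest means for scr1, rst2, pka1 and cgs1.

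All fits are from edgeR's quasi-likelihood test over the 12 libraries, with Benjamini-Hochberg adjustment over 6904 features. Calls required both an adjusted p below 0.05 and a log2 difference of 1 or more in size. At 30°C fbp1 was 96.8-fold lower in set1Δ than in wild-type cells (log2 fold change -6.60 ± 0.16 SE, adjusted p = 1.38e-12). It was 8.89-fold lower in lsd1-ΔHMG than in wild-type cells (-3.15 ± 0.14, adjusted p = 2.01e-10). At 37°C it was 4.74-fold lower in set1Δ than in wild-type cells (-2.25 ± 0.14, adjusted p = 4.16e-09), while in lsd1-ΔHMG cells the value of -0.36 ± 0.13 did not pass the limit on size (adjusted p = 0.0196). The mutants share the wild-type libraries in these 4 comparisons, and the values at 30°C rest on the wild-type pair whose label hsp16 runs against. Beside the wild-type libraries labelled 37°C (mean 224 CPM), fbp1 at 30°C lay above them in both lsd1-ΔHMG libraries (mean 738 CPM) and below them in both set1Δ libraries (mean 67.8 CPM). Beside those labelled 30°C (mean 6561 CPM), fbp1 at 37°C lay below them in both mutants (means 175 CPM in lsd1-ΔHMG and 47.2 CPM in set1Δ). Set directly against set1Δ, fbp1 was 10.9-fold higher in lsd1-ΔHMG at 30°C (3.44 ± 0.14, adjusted p = 5.39e-11) and 3.70-fold higher at 37°C (1.89 ± 0.13, adjusted p = 3.46e-08).

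By temperature, fbp1 was 4.22-fold lower at 37°C than at 30°C in lsd1-ΔHMG cells (-2.08 ± 0.13, adjusted p = 2.21e-08). For set1Δ the log2 value was -0.52 ± 0.13, inside the limit on size (adjusted p = 0.00248). By the labels it was 29.3-fold lower at 37°C in wild-type cells (-4.87 ± 0.15, adjusted p = 1.71e-11). The temperature difference in lsd1-ΔHMG stood 2.80 ± 0.19 above that in wild-type cells on the log2 scale (adjusted p = 7.31e-08), and that in set1Δ stood 4.35 ± 0.19 above it (adjusted p = 3.81e-10). Leaving out each library in turn, these ran over 2.62 to 2.96 for lsd1-ΔHMG and 4.19 to 4.45 for set1Δ.

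inv1, which encodes the secreted invertase, followed a like order at lower levels. lsd1-ΔHMG cells had 18.2 and 17.6 CPM at 37°C and 60.4 and 54.8 CPM at 30°C. set1Δ cells had 6.52 and 4.70 CPM at 37°C and 15.3 and 13.8 CPM at 30°C. Wild-type cells had 13.4 and 13.4 CPM at 37°C and 212 and 186 CPM at 30°C. As with fbp1, the wild-type 30°C pair was the highest and the set1Δ 37°C pair the lowest, with a ratio of 35.5 between their means and no overlap between neighbours. Unlike fbp1, inv1 was higher in both lsd1-ΔHMG libraries than in both wild-type libraries at 37°C. Over the 12 libraries the log2 CPM of inv1 and fbp1 had a Pearson r of 0.97, across conditions that share strains and scaling.

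Beside the wild-type libraries labelled 37°C (mean 13.4 CPM), inv1 at 30°C lay above them in lsd1-ΔHMG (mean 57.6 CPM) and only just above them in set1Δ (mean 14.5 CPM). Beside those labelled 30°C (mean 199 CPM), inv1 at 37°C lay below them in both mutants (means 17.9 CPM in lsd1-ΔHMG and 5.61 CPM in set1Δ). In the fit, inv1 was 13.7-fold lower in set1Δ than in wild-type cells at 30°C (-3.77 ± 0.13, adjusted p = 2.98e-11) and 3.45-fold lower in lsd1-ΔHMG (-1.79 ± 0.12, adjusted p = 5.06e-09). At 37°C it was 2.40-fold lower in set1Δ (-1.26 ± 0.14, adjusted p = 2.20e-06), and in lsd1-ΔHMG its value of 0.42 ± 0.13 did not pass the limit on size (adjusted p = 0.00726) and was -0.37 with offsets for GC content and length. Between the mutants, lsd1-ΔHMG exceeded set1Δ 3.96-fold at 30°C (1.99 ± 0.13, adjusted p = 3.83e-09) and 3.21-fold at 37°C (1.68 ± 0.14, adjusted p = 1.32e-07). With offsets these values were 1.31 and 1.22, and lsd1-ΔHMG against wild-type at 30°C was -2.43, all still called. Of the 6 genes, inv1 was the one called lower at 37°C in every strain, at -1.68 ± 0.12 in lsd1-ΔHMG (adjusted p = 6.80e-08), -1.38 ± 0.15 in set1Δ (adjusted p = 8.36e-07) and, by the labels, -3.89 ± 0.13 in wild-type cells (adjusted p = 3.38e-11). The temperature difference stood above that in wild-type cells by 2.21 ± 0.17 in lsd1-ΔHMG (adjusted p = 3.09e-07) and by 2.51 ± 0.19 in set1Δ (adjusted p = 5.53e-08).

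scr1, the zinc-finger repressor of both enzymes, was highest in lsd1-ΔHMG at 30°C and lowest in wild-type cells. Its level in lsd1-ΔHMG was 17.6 and 16.8 CPM at 37°C and 74.0 and 64.5 CPM at 30°C. It was 26.3 and 20.5 CPM in set1Δ at 37°C, and 26.0 and 21.9 CPM at 30°C. Wild-type cells held 4.07 and 3.77 CPM at 37°C and 10.5 and 9.87 CPM at 30°C. All 8 mutant libraries lay above all 4 wild-type libraries, and the set1Δ libraries of both temperatures overlapped.

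Against wild-type, scr1 was 6.81-fold higher in lsd1-ΔHMG at 30°C (2.77 ± 0.14, adjusted p = 5.49e-10) and 4.38-fold higher at 37°C (2.13 ± 0.15, adjusted p = 9.87e-09). In set1Δ it was 2.35-fold higher at 30°C (1.24 ± 0.14, adjusted p = 2.23e-06) and 5.95-fold higher at 37°C (2.57 ± 0.15, adjusted p = 3.23e-09). Between 37°C and 30°C it differed by -2.01 ± 0.13 in lsd1-ΔHMG (adjusted p = 2.88e-08), by -0.03 ± 0.13 in set1Δ (adjusted p = 0.819) and by -1.37 ± 0.16 in wild-type cells (adjusted p = 3.63e-06). The set1Δ temperature difference stood 1.34 ± 0.21 above the wild-type one (adjusted p = 5.33e-05), and lsd1-ΔHMG exceeded set1Δ 2.89-fold at 30°C (1.53 ± 0.13, adjusted p = 8.09e-08).

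Over the 5104 coding genes tested (genes are no independent replicates), log2 fold changes against wild-type followed GC content. The Pearson r was 0.57 for lsd1-ΔHMG at 37°C and 0.49 at 30°C, and for set1Δ 0.49 at 37°C and 0.11 at 30°C. With 40.3% GC, scr1 is richer in GC than 89.2% of these genes. Offsets for GC content and length moved the median of all features in lsd1-ΔHMG against wild-type at 37°C to 0.15, against -0.06 without them. With these offsets scr1 was still called against wild-type in lsd1-ΔHMG at 30°C (1.37) and in set1Δ at 37°C (1.49). It was no longer called in lsd1-ΔHMG at 37°C (0.46), in set1Δ at 30°C (0.88), between the mutants at 30°C (0.49) or for the set1Δ difference by temperature (0.61), while lsd1-ΔHMG against set1Δ at 37°C (-0.44 without offsets) was called lower (-1.03).

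rst2, the activator that binds STREP, was higher in lsd1-ΔHMG than in wild-type cells at both temperatures. In lsd1-ΔHMG it was at 147 and 138 CPM at 37°C and 127 and 109.9 CPM at 30°C. In set1Δ it was at 78.1 and 68.6 CPM at 37°C and 56.5 and 69.8 CPM at 30°C. In wild-type cells it was at 42.7 and 39.2 CPM at 37°C and 44.2 and 45.9 CPM at 30°C. The strains did not overlap, in the order lsd1-ΔHMG, set1Δ and wild-type, and within set1Δ the temperatures did. The log2 fold change of lsd1-ΔHMG over wild-type was 1.80 ± 0.11 at 37°C (3.47-fold, adjusted p = 2.44e-09) and 1.39 ± 0.11 at 30°C (2.63-fold, adjusted p = 3.55e-08). That of set1Δ over wild-type was 0.84 ± 0.11 at 37°C (adjusted p = 1.09e-05) and 0.49 ± 0.11 at 30°C (adjusted p = 0.00115), each under the limit on size. lsd1-ΔHMG over set1Δ gave 0.96 at 37°C and 0.91 at 30°C, just under that limit, and 1.04 and 1.03 with offsets. No temperature difference of rst2 was called, the widest being 0.27 ± 0.11 in lsd1-ΔHMG (adjusted p = 0.0385). At 34.5% GC, rst2 is poorer in GC than the median of 36.8%, and its lsd1-ΔHMG values against wild-type with offsets were 1.83 at 37°C and 1.35 at 30°C.

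pka1, the catalytic subunit of protein kinase A, followed an order like that of rst2. It stood at 91.6 and 100.4 CPM in lsd1-ΔHMG at 37°C and 85.4 and 75.6 CPM at 30°C. set1Δ cells had 42.0 and 34.7 CPM at 37°C and 43.9 and 44.3 CPM at 30°C. Wild-type cells had 28.4 and 25.2 CPM at 37°C and 35.8 and 31.9 CPM at 30°C. The 4 lsd1-ΔHMG libraries lay above all others, and set1Δ at 37°C overlapped wild-type at 30°C. The log2 fold change of lsd1-ΔHMG over wild-type was 1.84 ± 0.12 at 37°C (3.58-fold, adjusted p = 2.50e-09) and 1.25 ± 0.11 at 30°C (2.38-fold, adjusted p = 1.36e-07), and that of lsd1-ΔHMG over set1Δ was 1.32 ± 0.11 at 37°C (adjusted p = 1.67e-07). These 3 calls ended with offsets for GC content and length, at 0.45, 0.11 and 0.88; pka1, with 40.8% GC, is richer in GC than 91.4% of the protein-coding genes. Against wild-type, set1Δ differed by 0.51 ± 0.11 at 37°C and 0.38 ± 0.12 at 30°C, under the limit on size. The log2 CPM of pka1 and rst2 had a Pearson r of 0.96 over the 12 libraries.

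cgs1, the inhibitory subunit that holds Pka1, varied least, with a ratio of 2.23 between its highest and lowest mean. It had 41.6 and 34.1 CPM in lsd1-ΔHMG at 37°C and 42.2 and 31.4 CPM at 30°C. It had 15.0 and 19.0 CPM in set1Δ at 37°C and 25.7 and 22.4 CPM at 30°C. Wild-type cells had 25.6 and 19.4 CPM at 37°C and 30.7 and 26.1 CPM at 30°C. The lsd1-ΔHMG libraries were the highest and the set1Δ 37°C pair the lowest, while set1Δ at 30°C overlapped wild-type at 37°C. One comparison was called, lsd1-ΔHMG over set1Δ at 37°C (1.15 ± 0.18, 2.22-fold, adjusted p = 6.06e-05), and the call ended with offsets (0.87), with TMM factors from protein-coding genes (0.95) and without set1Δ 37°C replicate 1 (0.93). The next largest, lsd1-ΔHMG over wild-type at 37°C, was 0.75 ± 0.18 (adjusted p = 0.00147).

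**Figure D2:**
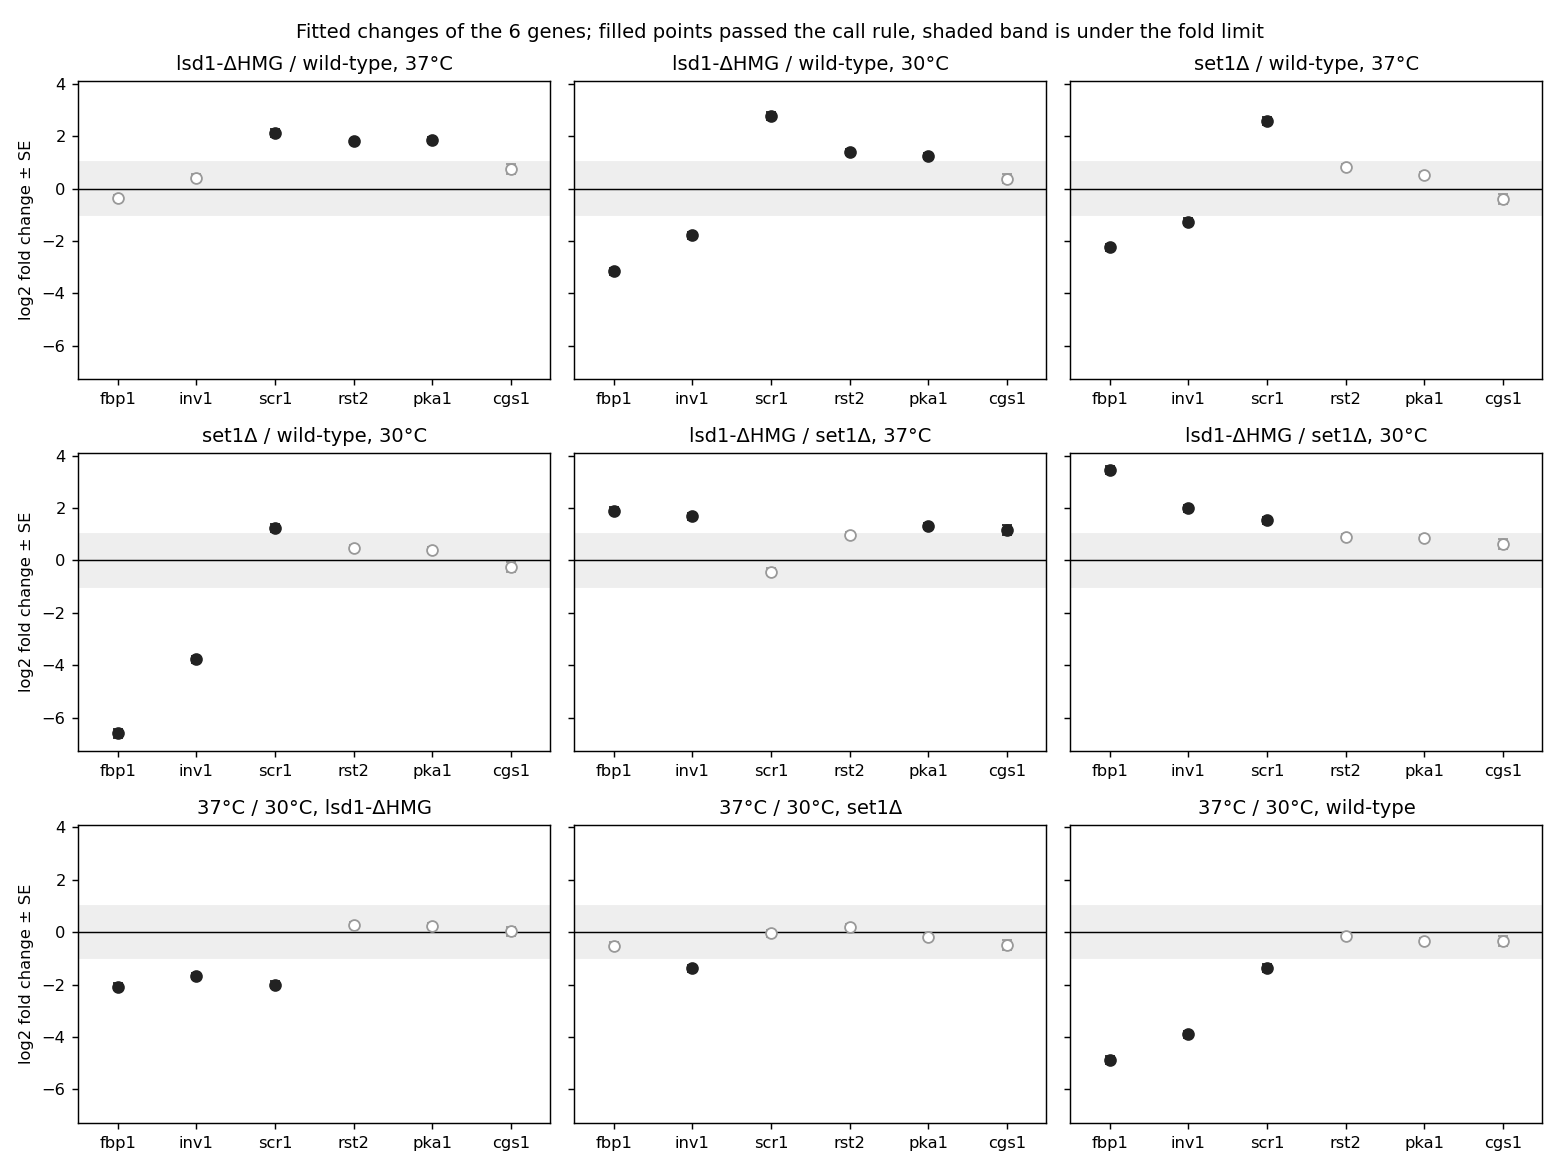
Log2 fold changes (vertical axis, ± SE from the fit) of the 6 genes in 9 comparisons, filled where called, with a shaded band under the limit on size. fbp1 and inv1 are lower than wild-type in both mutants at 30°C (down to -6.60) and, in set1Δ, at 37°C, scr1 is higher in all 4 comparisons with wild-type without GC offsets, and rst2 and pka1 are called against wild-type in lsd1-ΔHMG.

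Counted by comparison, lsd1-ΔHMG against wild-type gave 3 of 6 genes called at 37°C (40.7% of all features), 3 higher (25.4%) and 0 lower (15.3%). At 30°C it gave 5 of 6 (42.5%), 3 higher (24.4%) and 2 lower (18.1%). set1Δ against wild-type gave 3 of 6 at 37°C (24.2%), 1 higher (18.6%) and 2 lower (5.55%). At 30°C it gave 3 of 6 (32.6%), 1 higher (21.1%) and 2 lower (11.5%), and at both temperatures the higher gene was scr1 and the lower ones fbp1 and inv1. lsd1-ΔHMG against set1Δ gave 4 of 6 at 37°C (23.3%), 4 higher (12%) and 0 lower (11.3%), and 3 of 6 at 30°C (44.9%), 3 higher (19.4%) and 0 lower (25.5%). With 6 genes and shares of this size among all features, the counts are a description of these genes only.

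Between 37°C and 30°C, lsd1-ΔHMG gave 3 of 6 called (14.8% of all features), 0 higher (4.48%) and 3 lower (10.4%). set1Δ gave 1 of 6 (32.3%), 0 higher (11.4%) and 1 lower (20.9%). Wild-type gave 3 of 6 (21.5%), 0 higher (5.55%) and 3 lower (15.9%). The enzymes and scr1 account for these calls. The temperature difference departed from that of wild-type for 2 of 6 genes in lsd1-ΔHMG (18.5%), 2 higher (12.1%) and 0 lower (6.4%), and for 3 of 6 in set1Δ (36.8%), 3 higher (18.8%) and 0 lower (17.9%).

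For the 6 genes together, the median of the log2 fold changes was 1.27 in lsd1-ΔHMG against wild-type at 37°C (all features -0.06) and 0.81 at 30°C (all features -0.11). It was 0.05 in set1Δ at 37°C (all features 0.01) and 0.07 at 30°C (all features 0.22). The set1Δ medians lie between lower values of the enzymes and higher ones of scr1.

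**Figure D3:**
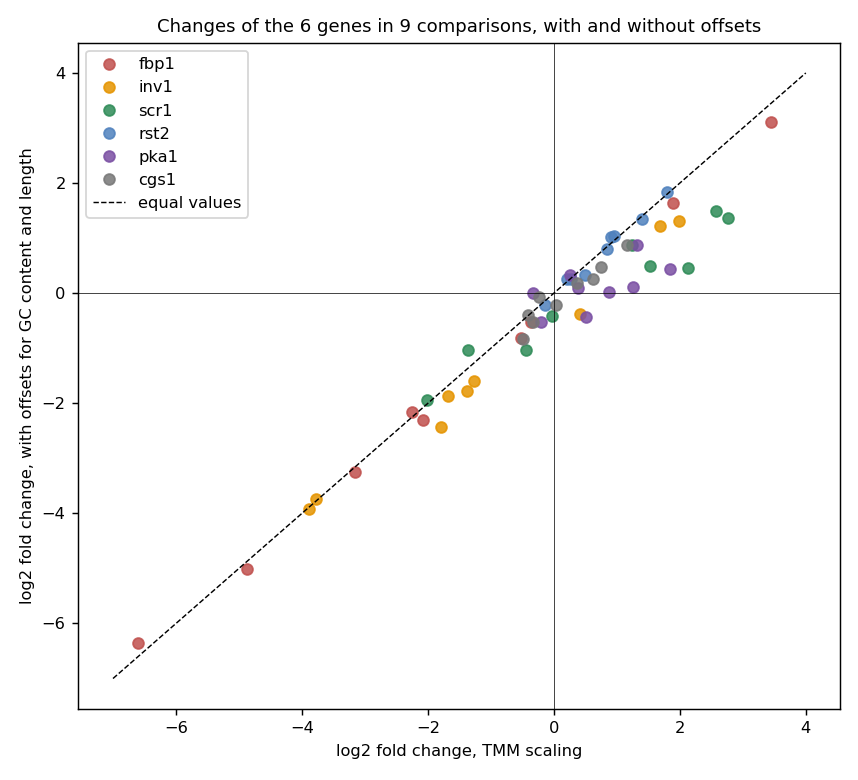
Log2 fold changes of the 6 genes in 9 comparisons under TMM scaling (horizontal axis) and with offsets for GC content and gene length (vertical axis), with a dashed line at equal values. fbp1 lies near the line over its whole range, whereas scr1 and pka1, the most GC-rich of the 6, fall below it in the comparisons with wild-type, for example 0.46 against 2.13 for scr1 in lsd1-ΔHMG at 37°C. inv1 also falls below it in lsd1-ΔHMG against wild-type, at -0.37 against 0.42 at 37°C and -2.43 against -1.79 at 30°C.

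The count table holds other transcripts at the loci of 3 of the 6 genes. SPNCRNA.1324 is a non-coding RNA on the opposite strand that covers 100% of fbp1. It measured 26.4 and 27.2 CPM in lsd1-ΔHMG at 37°C and 42.1 and 38.5 CPM at 30°C. In set1Δ it was at 43.1 and 40.9 CPM at 37°C and 39.3 and 42.5 CPM at 30°C. In wild-type cells it was at 59.2 and 55.8 CPM at 37°C and 252 and 208 CPM at 30°C. The wild-type 30°C pair was again the highest, and at 30°C the RNA was 5.69-fold lower in lsd1-ΔHMG than in wild-type (-2.51 ± 0.10, adjusted p = 1.06e-10) and 5.61-fold lower in set1Δ (-2.49 ± 0.10, adjusted p = 1.04e-10). At 37°C it was called lower in lsd1-ΔHMG (-1.10 ± 0.10, adjusted p = 1.27e-07) and not called in set1Δ (-0.45 ± 0.10). Its Pearson r with fbp1 over the 12 libraries was 0.80, and how far fbp1 reads enter its count was not tested. The mean of fbp1 was 18.3 times that of SPNCRNA.1324 in lsd1-ΔHMG at 30°C, 1.12 times in set1Δ at 37°C and 28.6 times in wild-type cells at 30°C. The libraries were strand-specific, and the study's methods separate reads by strand for a stranded analysis, but whether the counts used here came from it is not given in the sources used here. Where reads are divided among features without regard to strand, a read inside both would add 0.5 to each. Divided in this way, fbp1 could not exceed SPNCRNA.1324, which covers all of it. The fbp1 mean was above that of SPNCRNA.1324 in every condition, by 1.12 times in set1Δ at 37°C up to 28.6 times in wild-type cells at 30°C. Of the nonzero values, 14.8% ended in 0.5 for features lying inside 1 feature of the other strand, and 14.4% for features with no overlap.

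fbp1-ot3 (SPNCRNA.1325, 1151 bases), picked for its name after its values were seen, lies on the fbp1 strand and ends 40 bases before the fbp1 start, so both fbp1 stretches printed above fall inside it. Its levels were 11.8 and 15.9 CPM in lsd1-ΔHMG at 37°C and 17.7 and 15.2 CPM at 30°C. In set1Δ they were 15.7 and 16.3 CPM at 37°C and 22.5 and 19.8 CPM at 30°C. In wild-type cells they were 7.23 and 7.27 CPM at 37°C and 10.7 and 9.61 CPM at 30°C. Every mutant library was above every wild-type library, whereas for fbp1 the wild-type 30°C pair was above all others. The set1Δ values were called against wild-type at 37°C (1.14 ± 0.15, adjusted p = 1.35e-05) and at 30°C (1.06 ± 0.15, adjusted p = 2.05e-05), and the call at 30°C ended without wild-type 30°C replicate 2 (0.98). Those of lsd1-ΔHMG, 0.94 at 37°C and 0.70 at 30°C, were under the limit on size, and with offsets for GC content and length none of the 4 was called (0.17 to 0.94).

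**Figure D4:**
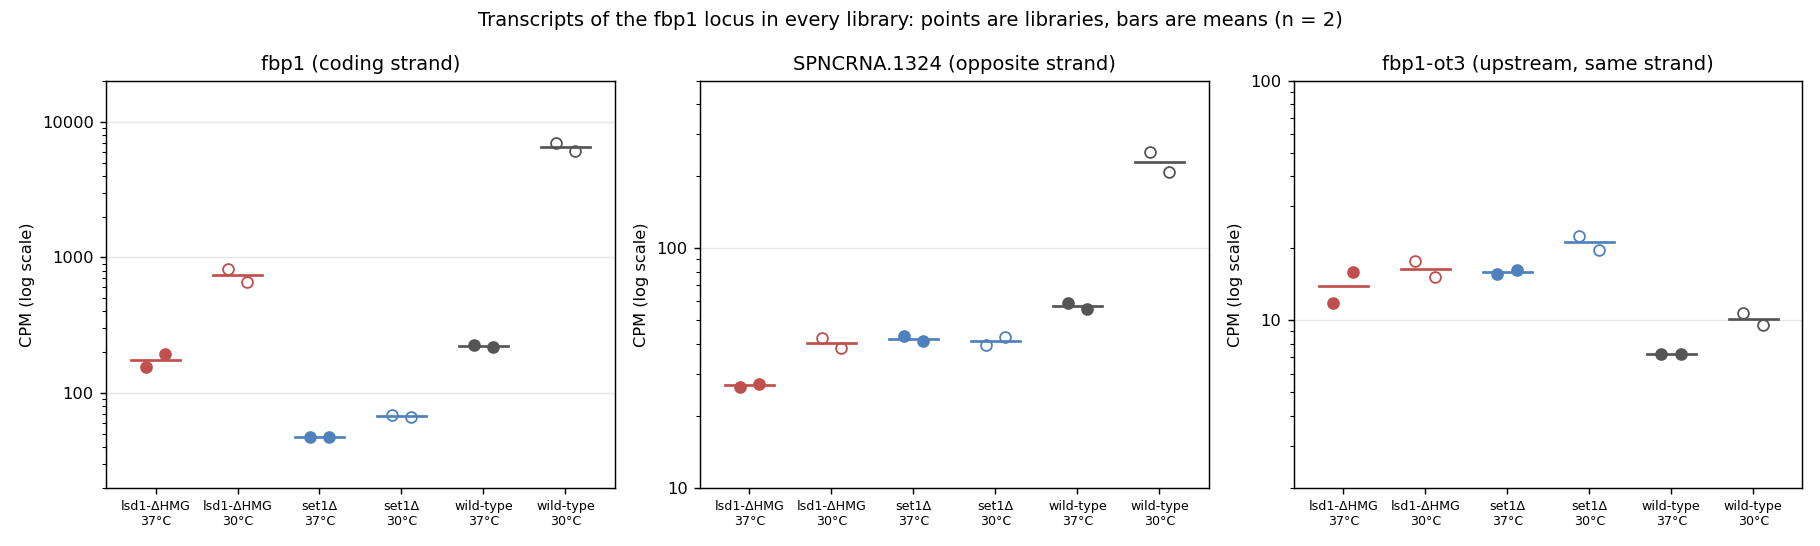
CPM (log axes) of fbp1, of SPNCRNA.1324 on the opposite strand and of fbp1-ot3 just upstream on the same strand, by condition, with points for libraries and bars for means of 2. fbp1 and SPNCRNA.1324 are highest in wild-type cells at 30°C (means 6561 and 229.5 CPM), whereas fbp1-ot3 is lowest in wild-type cells (means 7.25 CPM at 37°C and 10.2 CPM at 30°C).

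At inv1, the non-coding SPNCRNA.1224 shares 67 bases (2.45% of the gene) on the same strand. Its means at 37°C and 30°C were 3.73 and 4.47 CPM in lsd1-ΔHMG, 1.57 and 1.91 CPM in set1Δ, and 2.17 and 15.4 CPM in wild-type cells. It too was highest in wild-type cells at 30°C, and its Pearson r over the 12 libraries was 0.95 with inv1 and the same with fbp1, which lies on another chromosome. At rst2, fsv1, which encodes a SNARE protein, overlaps 194 bases on the opposite strand, and its means at 37°C and 30°C were 123 and 125 CPM in lsd1-ΔHMG, 58.8 and 46.6 CPM in set1Δ, and 46.6 and 73.5 CPM in wild-type cells. Like rst2 it was highest in lsd1-ΔHMG, with an r of 0.81, but unlike rst2 it was lowest in set1Δ at 30°C and wild-type at 37°C. How far shared reads enter these pairs was not tested.

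Of the listed genes of the cAMP pathway upstream of or beside Pka1, 6 of 10 rose and 0 fell in lsd1-ΔHMG against wild-type at 37°C (median log2 fold change 1.74), where 25.4% of all features rose and 15.3% fell (median -0.06). At 30°C 5 rose and 1 fell (median 1.05), where 24.4% of all features rose and 18.1% fell (median -0.11). Those higher at both temperatures were the receptor gene git3 (2.13 at 37°C and 1.54 at 30°C), the Gα gene gpa2 (2.39 and 1.87), the adenylate cyclase gene cyr1 (1.70 and 1.12), its associated protein gene cap1 (2.81 and 1.96) and the cAMP phosphodiesterase gene cgs2 (1.78 and 1.80). The Gβ gene git5 fell at 30°C (-1.27). The Gγ gene git11 was also lower but inside the limit on size, at -0.77 at 37°C and -0.998 at 30°C. With offsets it was at 0.45 and -0.13, and not called. In set1Δ 3 of 10 rose and 0 fell at 37°C, where 18.6% of all features rose and 5.55% fell (gpa2 2.02, cap1 2.41 and git1 1.40, which is needed for cyclase activation). At 30°C 0 of 10 were called by edgeR or DESeq2, with 5 at an unadjusted p under 0.05 in each (median 0.09 with edgeR, all features 0.22, of which 21.1% rose and 11.5% fell). The edgeR values there ran from -0.90 to 0.99, inside the limit on size, with git3 at 0.79 (adjusted p = 4.54e-06). In means at 30°C, cap1 was at 77.3 CPM in set1Δ against 38.8 CPM in wild-type cells, and sck1 at 102.8 CPM against 192 CPM. With offsets the lsd1-ΔHMG counts against wild-type were 5 higher at 37°C, and 3 higher and 1 lower at 30°C. Calls among all 6904 features, both directions together, also fell with offsets, from 2812 to 2198 at 37°C and from 2931 to 2288 at 30°C. The shares of all features that rose or fell are without offsets. The calls of cyr1 ended at both temperatures (0.81 at 37°C and 0.39 at 30°C) and that of cap1 at 30°C (0.77), while cap1 at 37°C was 1.37 and still called. By temperature, the Gγ gene git11 was lower at 37°C in every strain (-1.11 in lsd1-ΔHMG, -0.79 and not called with offsets, -1.78 in set1Δ and -1.33 in wild-type cells).

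Of 5 genes of the AMP-activated kinase branch, which signals low energy, 3 rose in lsd1-ΔHMG against wild-type at 37°C and 3 at 30°C: ssp2, the catalytic subunit gene (1.06 at 37°C and 1.17 at 30°C), ssp1, which encodes its upstream kinase (2.10 and 1.35), and the related ppk9 (2.76 and 2.67). None of the 5 fell. The medians were 1.06 at 37°C (all features -0.06, of which 25.4% rose) and 1.17 at 30°C (all features -0.11, of which 24.4% rose). The 37°C call of ssp2 ended without wild-type 37°C replicate 2 (0.95). In set1Δ ppk9 (2.22) and ssp1 (1.70) rose at 37°C, and at 30°C ppk9 rose (1.91) and amk2, the β subunit gene, fell (-1.10). Among all features 18.6% rose at 37°C in set1Δ, and 21.1% rose and 11.5% fell at 30°C, and the medians of the 5 genes were 0.20 at 37°C (all features 0.01) and 0.09 at 30°C (all features 0.22). With offsets only ppk9 of the 5 was called in set1Δ, with ssp1 at 0.97 at 37°C and amk2 at -0.95 at 30°C. The amk2 call ended without set1Δ 37°C replicate 1, set1Δ 30°C replicate 2 or either wild-type 37°C library (-0.95 to -0.82). ssp2 was also higher in lsd1-ΔHMG than in set1Δ (1.23 at 37°C and 1.08 at 30°C), and with offsets the call held at 37°C (1.02) and ended at 30°C (0.81). With offsets 1 gene at 37°C and 2 at 30°C were called in lsd1-ΔHMG against wild-type. Among all 6904 features, 2198 were then called in either direction at 37°C and 2288 at 30°C, against 2812 and 2931 without offsets. For set1Δ these numbers were 1612 and 2140 with offsets, against 1670 and 2253 without.

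Of 8 genes of factors that act at the fbp1 promoter, 6 rose in lsd1-ΔHMG (median 2.12, all features -0.06) and 6 in set1Δ (median 1.51, all features 0.01) against wild-type at 37°C, where 25.4% of all features rose in lsd1-ΔHMG and 18.6% in set1Δ. The numbers called higher with offsets were 4 for lsd1-ΔHMG and 4 for set1Δ. Of all 6904 features, 2198 were called in either direction with offsets for lsd1-ΔHMG (2812 without) and 1612 for set1Δ (1670 without). At 30°C 4 rose and 1 fell in lsd1-ΔHMG (all features 24.4% and 18.1%), and 3 rose and 1 fell in set1Δ (all features 21.1% and 11.5%). The CRE-binding partner gene pcr1 averaged 109.9 CPM in lsd1-ΔHMG, 36.5 CPM in set1Δ and 7.58 CPM in wild-type cells at 37°C. The corepressor gene tup12 averaged 151 CPM in lsd1-ΔHMG, 142 CPM in set1Δ and 15.3 CPM in wild-type cells at 37°C, whereas its paralogue tup11 was not called in any of the 4 comparisons with wild-type (-0.41 to 0.68). The gene of the CCAAT-binding subunit php2 was higher than wild-type at 37°C in lsd1-ΔHMG (1.46) and set1Δ (1.07, 0.98 and not called without wild-type 37°C replicate 2) and lower at 30°C (-1.53 and -2.88). With offsets the 37°C values were -0.37 and -0.28, of the other sign and not called, and the 30°C values were -3.00 and -3.33.

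The 13 genes listed as other glucose-repressed or Rst2-dependent genes held both directions. In lsd1-ΔHMG against wild-type 8 rose and 2 fell at 37°C (median 1.08), where 25.4% of all features rose and 15.3% fell (median -0.06). At 30°C 6 rose and 4 fell (median 0.52), where 24.4% of all features rose and 18.1% fell (median -0.11). With offsets the counts at 37°C became 3 higher and 2 lower, and those at 30°C 5 higher and 5 lower. Calls in either direction among all 6904 features went from 2812 to 2198 at 37°C and from 2931 to 2288 at 30°C with offsets. In set1Δ 5 rose and 0 fell at 37°C (median 0.37, 1 and 1 with offsets), where 18.6% of all features rose and 5.55% fell (median 0.01). Those shares are without offsets, and calls in either direction among all features went from 1670 to 1612 with them. At 30°C 2 rose and 5 fell (median -0.49), where 21.1% of all features rose and 11.5% fell (median 0.22). At 30°C the glycerol dehydrogenase gene gld1 averaged 110.3 CPM in lsd1-ΔHMG and 9.73 CPM in set1Δ, against 13.7 CPM in wild-type cells. The dihydroxyacetone kinase gene dak1 averaged 691 CPM in lsd1-ΔHMG and 61.7 CPM in set1Δ at 30°C, against 68.0 CPM in wild-type cells. Both genes, which act in glycerol use, were thus high in lsd1-ΔHMG alone of the 30°C conditions. ste11, a regulator of sexual differentiation that Rst2 is known to activate, was higher than wild-type in lsd1-ΔHMG at 37°C (3.11) and 30°C (2.56) and in set1Δ at 37°C (1.16) and 30°C (1.29), and all 4 were also called with offsets.

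The gluconate transporter gene ght3 and the α-galactosidase gene mel1 were, like fbp1, far lower in both mutants at 30°C than in the wild-type pair whose label hsp16 runs against. At 37°C both were called lower in lsd1-ΔHMG and not in set1Δ, whereas fbp1 was called lower in set1Δ and not in lsd1-ΔHMG. In set1Δ at 37°C ght3 averaged 53.3 CPM and mel1 19.0 CPM, against 73.4 and 17.2 CPM in wild-type cells. At 30°C ght3 averaged 19.7 CPM in lsd1-ΔHMG and 7.59 CPM in set1Δ, against 540.3 CPM in wild-type cells. mel1 averaged 6.96 CPM in lsd1-ΔHMG and 7.80 CPM in set1Δ, against 97.7 CPM in wild-type cells. ght5, the high-affinity glucose transporter gene, ran the other way, at 1225 CPM in lsd1-ΔHMG (2.05, 0.72 with offsets) and 646 CPM in set1Δ (1.12, 0.74 with offsets), against 296 CPM in wild-type cells, and neither was called with offsets. At 37°C relative to 30°C, 0 of 13 rose and 6 fell in lsd1-ΔHMG (median -0.83), where 4.48% of all features rose and 10.4% fell (median 0.05). In set1Δ 4 rose, among them ght3 (2.81), and 3 fell, among them ght5 (-2.53) and ste11 (-1.51), where 11.4% of all features rose and 20.9% fell. With offsets the set1Δ counts were 3 higher and 5 lower, and 2007 of all 6904 features were called in either direction, against 2227 without. In wild-type cells, by the labels, 0 of 13 rose and 11 fell (median -1.38), where 5.55% of all features rose and 15.9% fell (median -0.04). With offsets 0 of the 13 rose and 8 fell in wild-type cells, and 1441 of all 6904 features were called in either direction, against 1481 without.

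**Figure D5:**
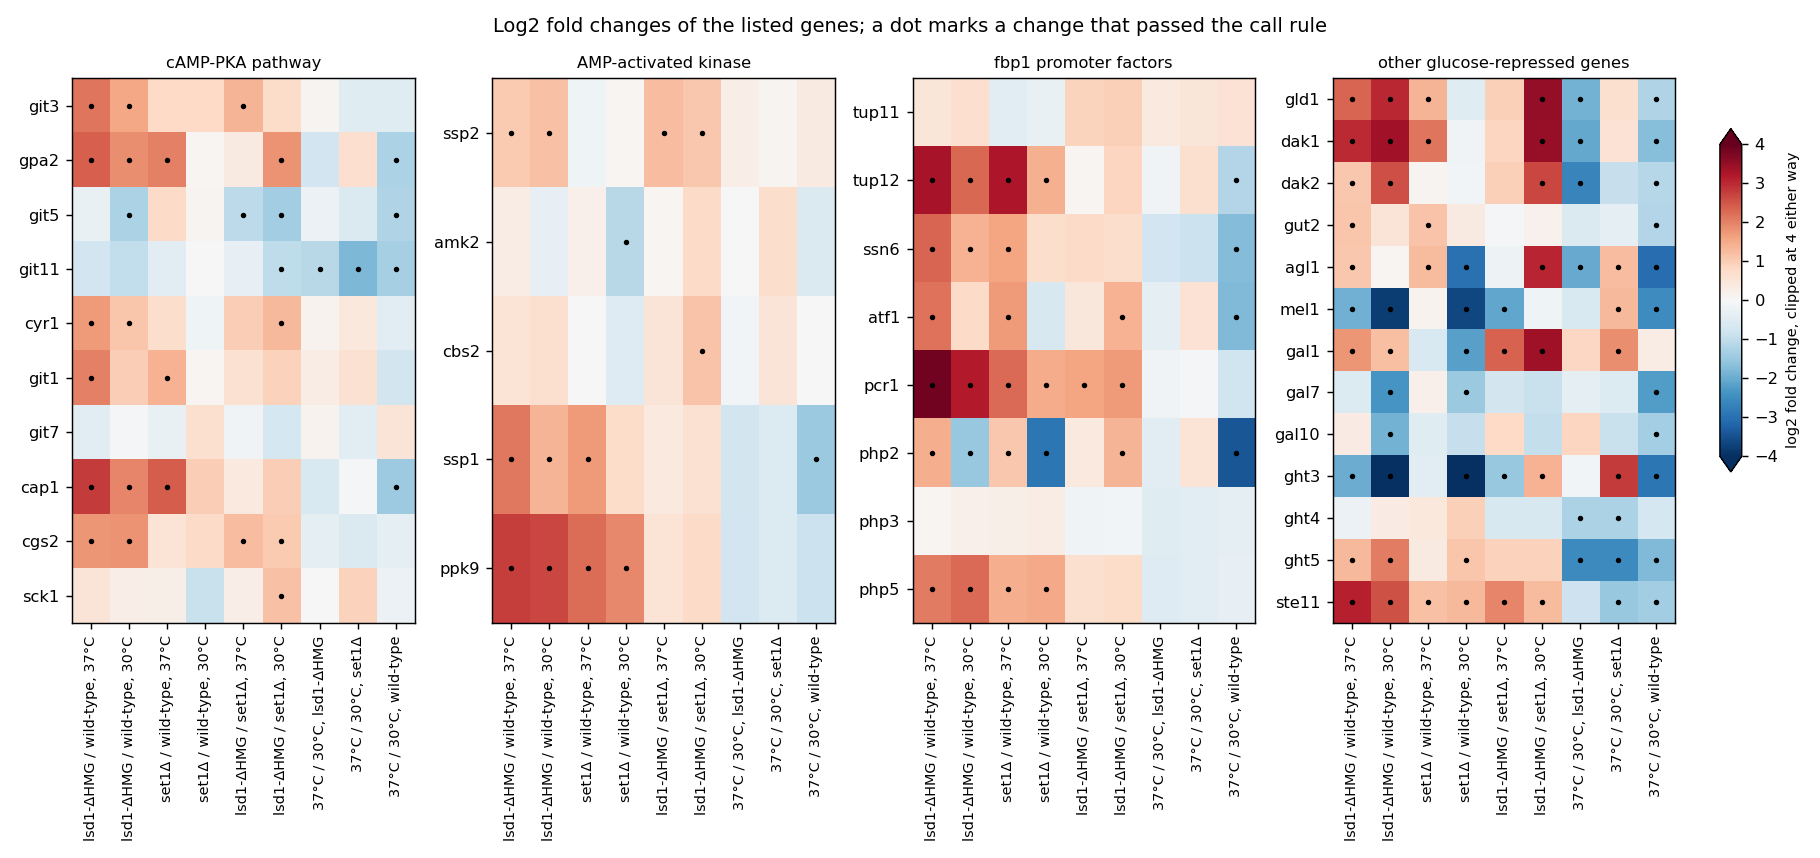
Log2 fold changes (colour, clipped at 4 either way) of the listed genes in 9 comparisons along the horizontal axis, with a dot where the call rule was passed. Without GC offsets, the fbp1 promoter factors are mostly higher than wild-type in both mutants at 37°C (6 of 8 in each). The other glucose-repressed or Rst2-dependent genes hold both directions, with ght3 and mel1 lower and gld1 and dak1 higher than wild-type in lsd1-ΔHMG at 30°C.

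Likeness of pattern was measured as the Pearson r of log2 CPM over the 12 libraries, among features with a mean of at least 10 CPM, with the 6 genes and features overlapping the gene in question left out of the candidates. Closest to fbp1 were the non-coding SPNCRNA.1031 (r = 0.98), SPBC20F10.03 (0.97) and hry1 (0.97), and closest to inv1 were SPCC794.16 (0.98), hry1 (0.96) and SPBPB21E7.10 (0.96). The means of hry1 at 37°C and 30°C were 5.97 and 18.6 CPM in lsd1-ΔHMG, 1.34 and 1.23 CPM in set1Δ, and 2.26 and 256 CPM in wild-type cells. As hry1 was picked by this likeness, its high wild-type 30°C pair is no separate result. For scr1 they were map4 (0.99), sum3 (0.99) and fas2 (0.99), for rst2 nab2 (0.99), rsc7 (0.99) and rmn1 (0.99), for pka1 tre1 (0.99), clu1 (0.99) and sst4 (0.99), and for cgs1 wsc1 (0.91), adg3 (0.90) and SPBC1271.03c (0.90). These values share libraries and scaling and describe the 12 libraries alone.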

How the data were processed

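RNA-seq of lsd1-ΔHMG, set1Δ and wild-type cells, each at 37°C and 30°C in duplicate, gave 12 libraries. The deposited table holds expected counts for 7268 features: per the labels, the authors trimmed reads (Trimmomatic 0.39), aligned them with STAR and assigned them with featureCounts, dividing reads among features, without normalization. Of its 34 value columns, 12 were used and 22 were not used here. Counts were rounded to whole numbers. The files hold no coordinates, and the authors aligned to an earlier release than RefSeq's ASM294v3, which gave strand, overlap, GC content, length and sequence here. Identifiers matched for 6846 features (94.2%).

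Counts were fitted with edgeR 4.0.16 in R 4.3.3 (TMM, filterByExpr by condition, robust quasi-likelihood fit over all 12 libraries, Benjamini-Hochberg over 6904 features), and 11 contrasts were tested. Between libraries of a condition, log2 CPM correlated at 0.993 to 0.997, with a biological coefficient of variation of 0.0806 in common. Totals of 27642384 to 34843653 counts and 2 libraries per condition limit precision. The fit was tested on simulated data with known changes. limma 3.58.1 (voom), DESeq2 1.42.0, other scalings, filters and thresholds, offsets for GC content and length, a replicate block, only the libraries compared, and leaving out each library were alternatives. Named are the 6 genes, set1, lsd1 and hsp16, counted features overlapping a gene, the genes of 4 lists and the 3 most alike features of each gene. Members and lists were chosen with earlier results of these data known.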

Additional observations from a re-analysis of the deposited data

Results flagged for a closer look

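In 5 cases the difference between 37°C and 30°C in a mutant departed from that in wild-type cells by edgeR's interaction contrast (adjusted p under 0.05 and at least 1 on the log2 scale). For fbp1 the departure was 2.80 in lsd1-ΔHMG and 4.35 in set1Δ. For inv1 it was 2.21 in lsd1-ΔHMG and 2.51 in set1Δ. For scr1 it was 1.34 in set1Δ, and 0.61 with offsets for GC content and length. All 5 take the wild-type libraries labelled 30°C, in which hsp16 was at 39399 and 36204 CPM, as their base, and the part of that in the departures was not tested.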

How the results depend on the processing

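A count of called genes could keep its size while the genes behind it changed, as for lsd1-ΔHMG against set1Δ with offsets. In size alone, counts of called genes kept within 1.5 times of their value under every scaling, filter and tool tried and without each library, with these exceptions. With offsets for GC content and length, lsd1-ΔHMG against wild-type at 37°C gave 1 of 6 in place of 3, also with the replicate block. Of all 6904 features, 2198 were called in that comparison with offsets and 2203 with offsets and the block, against 2812 without either. With a log2 limit of 2, alone or with an adjusted p limit of 0.0001, the counts were 2 for lsd1-ΔHMG against wild-type at 30°C, 1 at 37°C, 1 for lsd1-ΔHMG against set1Δ at 30°C, 0 at 37°C and 0 for 37°C against 30°C in set1Δ. Among the 66 gene by contrast values, settings other than leaving out a library ended a call in 17 cases and added one in 7, and leaving out a library ended 1 and added 3. Signs turned only for values that were not called. With offsets, without and with the replicate block, the log2 fold change was -0.37 and -0.37 for inv1 in lsd1-ΔHMG against wild-type at 37°C, -0.43 and -0.43 for pka1 at 37°C in the set1Δ to wild-type comparison, 0.0047 and 0.0047 for pka1 by temperature in wild-type, -0.53 and -0.53 for pka1 in the set1Δ difference by temperature, and -0.22 and -0.22 for cgs1 by temperature in lsd1-ΔHMG. The last was also -0.0397 with RLE factors, -0.0629 with TMM of protein-coding genes, -0.0146 with only the libraries compared and -0.0390 with DESeq2. scr1 by temperature in set1Δ was 0.0060 with RLE factors, 0.13 with upper-quartile factors and 0.0062 with DESeq2. Leaving out a library, the ranges that crossed 0 were -0.24 to 0.14 for scr1 by temperature in set1Δ, -0.16 to 0.0341 for rst2 by temperature in wild-type, -0.12 to 0.27 for pka1 in the set1Δ difference, -0.36 to 0.0207 for cgs1 at 30°C in set1Δ over wild-type, and -0.16 to 0.27 for cgs1 by temperature in lsd1-ΔHMG. The causes were not tested.

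Replicate numbers were not taken to pair the samples, since no label says that a number marks a shared batch or day. Column labels carry a letter (A or B) that goes with the replicate number, and its meaning is not stated. Over 15 pairs of conditions, the deviations of same-numbered libraries correlated at -0.18 to 0.35, with 8 of 15 over 0.1. What these correlations stem from was not tested, and they give no reason against pairing. The replicate block changed none of the 66 gene by contrast calls, with fbp1 at -6.60 in set1Δ against wild-type at 30°C. In wild-type comparisons the 2 libraries labelled 30°C limit what can be read, and scr1, at 3.77 to 10.5 CPM in wild-type cells, has the fewest counts behind it (at least 121).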
